A study of Mus musculus with 59 samples.

Results

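The 10 genes of fast skeletal muscle described here were followed through RNA sequencing of mouse mammary tumors: Acta1, Tnnt3, Tnnc2, Myh4, Myh1, Myl1, Mylpf, Ckm, Pvalb and Atp2a1. They were chosen by symbol as markers of muscle next to the mammary gland, and all 10 were found among 55421 genes of a gene-level table and among 33282 genes of a table of intronic reads. The 59 libraries fell into 3 groups by the treatment in the labels: vehicle (n = 19), methylparaben (n = 20) and propylparaben (n = 20). Every library, controls included, came from a mammary tumor of B6.FVB-Tg(MMTV-PyVT)634Mul/LellJ mice with the genotype PyMT (+/-), in which the mouse mammary tumor virus promoter drives the polyoma middle T oncogene in the mammary epithelium. Methylparaben and propylparaben are preservatives, esters of para-hydroxybenzoic acid with a methyl or a propyl group, and the comparisons ask how tumors of the exposed groups differed from those of the vehicle group and from each other. The labels give the treatment by name, without a dose, a duration or an age. Total RNA was taken from frozen tumor pieces that had been ground whole, so a library holds RNA of every tissue in the piece. The labels do not say that each library is a separate animal, and p-values therefore measure the spread between these samples.

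Striated muscle contracts when thick filaments, built from myosin heavy and light chains, pull on thin filaments of actin that carry tropomyosin and the troponins. Calcium released from the sarcoplasmic reticulum binds troponin C and starts the contraction, and a calcium pump ends it by returning calcium to the store. Adult limb and trunk fibres are typed by the myosin heavy chain they use: Myh4 marks the fastest type IIB fibres of rodents, Myh1 type IIX, Myh2 type IIA and Myh7 slow type I fibres. Mouse mammary glands lie under the skin, over sheets of body wall muscle.

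The proximal promoters of the genes are shown because levels of the 10 genes varied together across tumors. Promoter sequences came from RefSeq (build GRCm38.p6), where 9 of the 10 genes were matched and Tnnt3 was not. The 250 bases before the start annotated there are printed 5′ to 3′ on the strand of the gene. These starts are not those of the gene spans given below, which come from GENCODE M21. The Ckm window, for one, lies inside the Ckm span (19404776 to 19422841). For Acta1 (chr8:123894776-123895025, minus strand) and Ckm (chr7:19410844-19411093, plus strand), capitals mark matches to an E-box (CANNTG), a CArG box, a MEF2 box or a TATA box (TATAAA), each searched on both strands. For Myh4 (chr11:67237562-67237811, plus strand) and Myh1 (chr11:67199852-67200101, plus strand), which are neighbors in one myosin cluster, capitals mark runs of at least 10 bases that both windows hold.
Acta1: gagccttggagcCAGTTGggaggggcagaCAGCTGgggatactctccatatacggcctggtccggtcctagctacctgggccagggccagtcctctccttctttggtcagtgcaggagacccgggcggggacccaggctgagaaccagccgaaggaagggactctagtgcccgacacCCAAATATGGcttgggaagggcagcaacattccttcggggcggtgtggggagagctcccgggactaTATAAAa
Ckm: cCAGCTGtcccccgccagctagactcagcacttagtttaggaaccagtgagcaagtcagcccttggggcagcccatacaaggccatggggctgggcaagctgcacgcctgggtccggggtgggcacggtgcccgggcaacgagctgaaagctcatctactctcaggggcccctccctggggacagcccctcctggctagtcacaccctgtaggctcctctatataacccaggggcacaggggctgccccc
Myh4: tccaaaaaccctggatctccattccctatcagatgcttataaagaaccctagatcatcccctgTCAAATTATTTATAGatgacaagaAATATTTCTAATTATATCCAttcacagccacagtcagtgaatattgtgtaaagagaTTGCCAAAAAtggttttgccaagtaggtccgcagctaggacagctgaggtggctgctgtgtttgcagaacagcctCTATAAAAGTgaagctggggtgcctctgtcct
Myh1: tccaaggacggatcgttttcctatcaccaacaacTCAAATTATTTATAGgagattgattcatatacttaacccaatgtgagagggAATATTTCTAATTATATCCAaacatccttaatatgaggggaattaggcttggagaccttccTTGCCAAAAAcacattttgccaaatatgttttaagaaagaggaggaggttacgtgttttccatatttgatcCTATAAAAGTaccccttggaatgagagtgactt

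The Acta1 window held 2 E-box matches, a CArG box match at position -73 and a TATA box match at -7. Positions are counted from the RefSeq start, upstream negative. The Ckm window held 1 E-box match, at its far end, and no match to the other 3 motifs as searched. Only the letters TATAAA counted as a TATA box, so the tatataa near the start in the Ckm window was not counted. Windows of Myh4 and Myh1 shared 55 bases in runs of at least 10, the longest of 20 bases (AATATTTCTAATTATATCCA), which began at -163 in Myh4 and at -165 in Myh1, and which 3 windows of the whole table held. Another shared run held the same MEF2 box match, TTATTTATAG, and another held TATAAA at -31 and -32. Taking the first window listed for each of the 9 genes, an E-box was found in 7, a MEF2 box in 3 (Myh4, Myh1 and Pvalb), a CArG box in 2 (Acta1 and Myh4), a TATA box in 4 and the MCAT motif (CATTCC) in 4. Among all 32851 promoter windows of the same length, 66.2% held an E-box, 2.92% a MEF2 box, 1.47% a CArG box, 12.4% a TATA box and 12.6% an MCAT motif. The TATA box letters can lie inside a MEF2 box match, as they do in Myh4 and Myh1. These matches describe letters and show no binding.

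Libraries held 1166502 to 2032789 reads on genes, and 307255 to 1059351 reads on introns. Values are given as deposited, as counts per unit of library size (CPM) divided by a factor per library (0.782 to 1.09), called scaled CPM. One read was worth 0.323 to 0.664 scaled CPM in the gene table, and a gene with 0 reads in a library can hold up to 3 reads, or 0.969 to 1.99 scaled CPM. Intervals on shares of reads are exact binomial 95% intervals and cover counting error only. The labelled tissue was checked against 10 genes of mammary and luminal epithelium, among them Epcam, Krt8 and Krt18, all of which had reads in all 59 libraries, with a summed level of 1595 to 3045. Of the 10, 1 gene, Gata3, rose in methylparaben against vehicle (log2 0.56, limma adjusted p = 0.0355), where 0.683% of all genes tested were called higher. Methylparaben replicate 5 had the highest level of the 10 muscle genes and also of white fat and brown fat genes. Values without it stand beside most comparisons of methylparaben with vehicle for the muscle genes and fat lists. For Gata3, Mbp, the limma intron estimates and the remaining lists they are not given.

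Muscle RNA was uneven between tumors of every group. Reads on the 10 genes made up 0.000139% to 1.08% of reads on genes, with a median of 0.0178%. The highest was methylparaben replicate 5 (1.08%, interval 1.07 to 1.10), which alone held 25.9% of all reads on these genes in the 59 libraries. Methylparaben replicates 6 (0.219%), 10 (0.207%) and 7 (0.159%), vehicle replicate 12 (0.152%) and propylparaben replicate 19 (0.134%) followed. At the other end, methylparaben replicate 1 had 2 reads on the 10 genes, and 19 libraries had 20 such reads or fewer. All 10 genes had a read in 33 libraries: 9 of 19 vehicle, 12 of 20 methylparaben and 12 of 20 propylparaben libraries. In vehicle the share ran from 0.000841% to 0.152% (median 0.00154%), in methylparaben from 0.000139% to 1.08% (median 0.0401%) and in propylparaben from 0.000343% to 0.134% (median 0.0261%). The methylparaben range encloses those of both other groups, and its replicates 5, 6, 10 and 7 lie above every library of those groups. In each group the libraries split into a part with few muscle reads and a part with many: 32 libraries (9, 12 and 11) had at least 200 such reads. The vehicle median lies in the low part and those of the ester groups in the lower end of the high part. In bulk tissue, fewer muscle fibres in the piece and less RNA per fibre cannot be told apart.

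**Figure D1:**
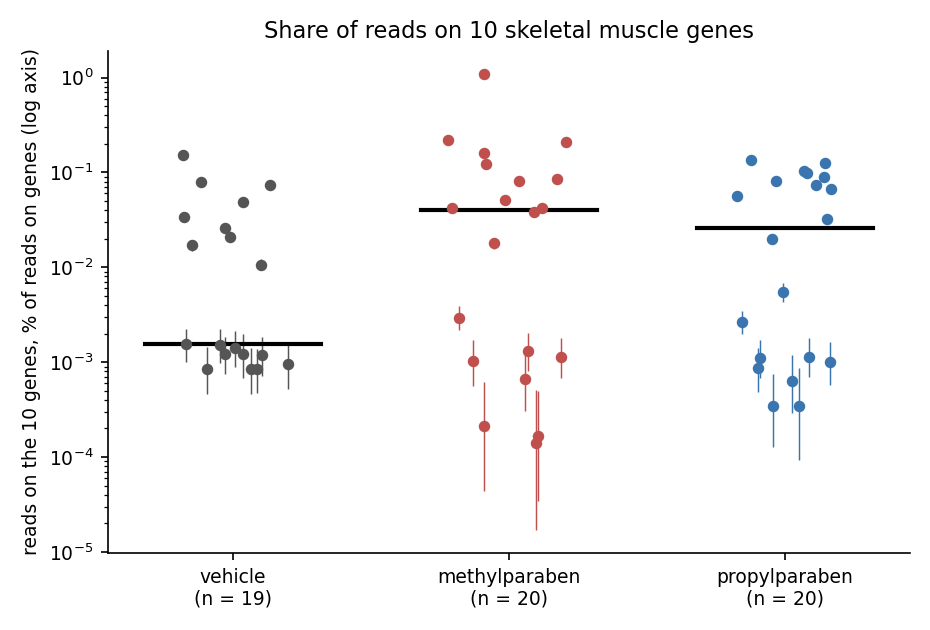
Share of reads on the 10 muscle genes in each library, in percent of reads on genes on a log axis, with exact binomial 95% intervals as thin lines and group medians as black bars. Each group holds libraries near 0.001% and libraries above 0.01%, and methylparaben replicate 5 stands alone at 1.08%.

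Among the thin filament genes, Acta1 encodes skeletal alpha-actin, the actin of the thin filament (chromosome 8, 123891769 to 123894751 on the minus strand, GRCm38). Its level was 1.13 to 237 scaled CPM in vehicle (median 6.35), 0 to 1827 in methylparaben (median 65.1) and 0.414 to 202 in propylparaben (median 42.1). It had at least 10 scaled CPM in 9, 12 and 12 libraries of the 3 groups, and 57 of the 59 libraries had at least 1 read. Tnnt3, fast skeletal troponin T (chromosome 7, 142498836 to 142516009, plus strand), ties the troponin complex to tropomyosin. Its level was 0 to 67.7 in vehicle (median 1.24), 0 to 819 in methylparaben (median 19.2) and 0 to 64.6 in propylparaben (median 12.7). Tnnc2, fast skeletal troponin C (chromosome 2, 164777161 to 164779967, minus strand), is the calcium sensor of the thin filament. It ran from 0 to 107 in vehicle (median 1.71), from 0 to 879 in methylparaben (median 23.6) and from 0 to 103 in propylparaben (median 15.4). For all 3 genes the highest vehicle library was replicate 12, the highest methylparaben library was replicate 5, and the methylparaben range enclosed the ranges of both other groups. Tnnc2 shares 592 exon bases with Ube2c, a gene of mitosis on the other strand, and the strand setting of the counting is not given in the sources used here, so reads of the 2 genes in that stretch cannot be told apart.

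Of the thick filament genes, Myh4 encodes the IIB myosin heavy chain (chromosome 11, 67238029 to 67260446, plus strand) and reached the highest level of any member. It ran from 0 to 266 scaled CPM in vehicle (median 2.43), from 0 to 2453 in methylparaben (median 56.9) and from 0 to 240.1 in propylparaben (median 40.1). Myh1, the IIX heavy chain (chromosome 11, 67200052 to 67224575, plus strand), was the lowest member: 0 to 27.4 in vehicle (median 0.376), 0 to 179 in methylparaben (median 6.94) and 0 to 30.4 in propylparaben (median 5.03). No Myh1 read was found in 21 of 59 libraries. Myl1, which encodes the fast alkali light chains (chromosome 1, 66924295 to 66945404, minus strand), ran from 0 to 47.1 in vehicle (median 1.69), from 0 to 497 in methylparaben (median 17.5) and from 0 to 57.5 in propylparaben (median 12.9). Mylpf, the fast regulatory light chain (chromosome 7, 127208890 to 127214298, plus strand), ran from 0 to 55.9 (median 2.81), from 0.366 to 470.1 (median 14.7) and from 0 to 47.002 (median 11.9) in the same order of groups. Myh4 and the light chains had their highest value in methylparaben replicate 5 and their highest vehicle value in replicate 12, while the highest vehicle value of Myh1 was in replicate 3.

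In energy supply, Ckm encodes muscle creatine kinase, which renews ATP from phosphocreatine (chromosome 7, 19404776 to 19422841, plus strand). Its level was 0 to 75.8 scaled CPM in vehicle (median 1.13), 0 to 652 in methylparaben (median 17.2) and 0 to 66.2 in propylparaben (median 13.1). Pvalb and Atp2a1 handle calcium. Pvalb encodes parvalbumin, a calcium buffer that speeds relaxation of fast fibres (chromosome 15, 78191114 to 78206400, minus strand), and ran from 0 to 42.0 in vehicle (median 0.809), from 0 to 448 in methylparaben (median 12.9) and from 0 to 42.8 in propylparaben (median 6.83). Atp2a1, the calcium pump of the fast sarcoplasmic reticulum (chromosome 7, 126445858 to 126463108, minus strand), ran from 0 to 89.8 (median 2.43), from 0 to 915 (median 21.7) and from 0 to 87.7 (median 14.5). As with the filament genes, the upper ends of vehicle and propylparaben were close to each other and methylparaben replicate 5 lay 5.86-fold (Atp2a1) to 7.03-fold (Pvalb) above the second library of the series. Exons of antisense genes or of genes on the other strand overlap those of Ckm (451 bases, A930016O22Rik), Myh1 (515 bases, Myhas) and Atp2a1 (763 bases, Rabep2), and their reads cannot be told apart there either.

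**Figure D2:**
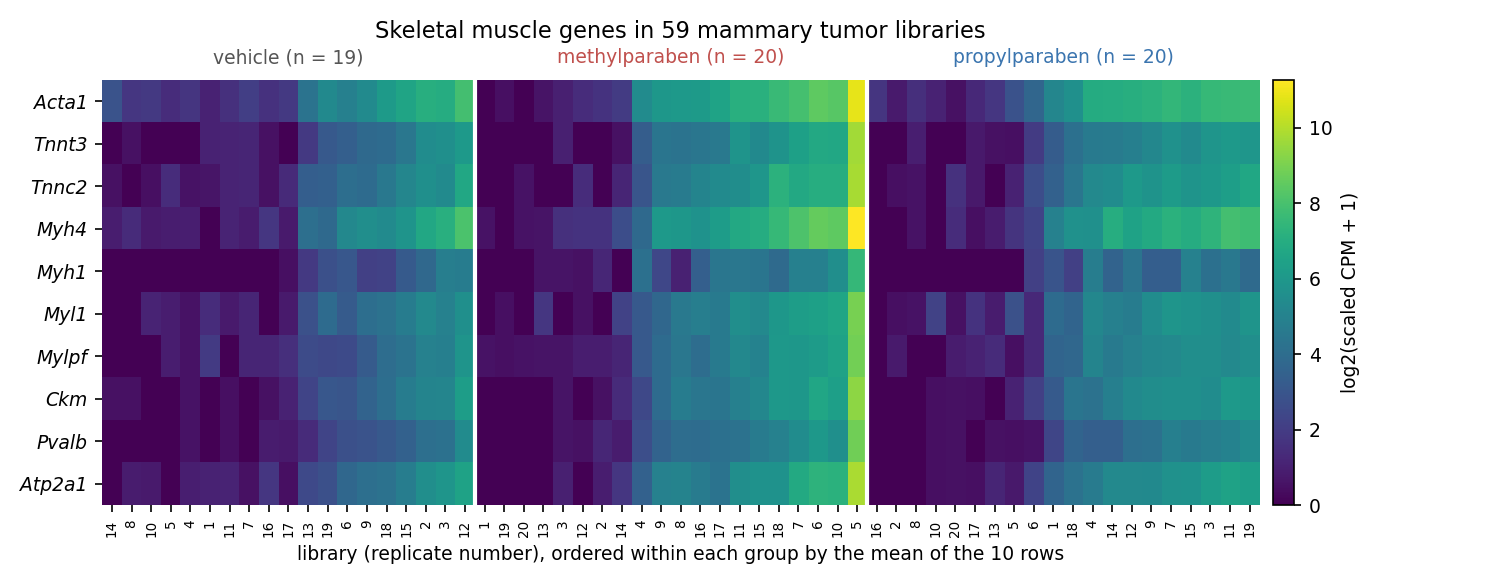
Level of the 10 genes in each of the 59 libraries as log2(scaled CPM + 1), darker for lower, with libraries ordered within each group by the mean of the 10 rows. Bright columns are bright in nearly every row, and methylparaben replicate 5 is the brightest column.

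The 10 genes moved as one set. Over the 45 pairs of members, the Pearson correlation of log2(scaled CPM + 1) across the 59 libraries was at least 0.92, with the lowest value for Myh1 and Myl1. Each gene's correlation with the mean of the other 9 ran from 0.95 (Myh1) to 0.99 (Ckm). These correlations describe libraries that share depth and tissue, and no p is attached. The standard deviation of the log2 level ran from 2.06 (Myh1) to 3.08 (Myh4), against a median of 0.38 over the 14487 genes tested. Myh4 and Acta1 held ranks 1 and 2 of all these genes by that spread, and the least variable member, Myh1, held rank 19.

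Per length of exon, Acta1 was the most abundant member and Myh1 the least. In the 32 libraries with at least 200 reads on the 10 genes, Acta1 made up a median of 29.5% of the summed reads per kilobase (23.7% to 40.2%), Tnnc2 22.0%, Mylpf 9.86% and Tnnt3 7.92%. Pvalb (6.61%), Myh4 (6.61%), Myl1 (6.05%), Atp2a1 (4.49%), Ckm (4.06%) and Myh1 (0.750%) followed. Acta1 lay above Tnnc2 in 30 of the 32 libraries, Tnnc2 above Mylpf in 32, and Ckm above Myh1 in 31. Neighbors lower in the order changed places between libraries: Pvalb was above Myh4 in 15 of 32, Myh4 above Myl1 in 17 and Atp2a1 above Ckm in 20.

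No member passed the test in any of the 3 comparisons at the gene level. With limma on log2(scaled CPM + 1) and Benjamini-Hochberg adjustment over 14487 genes (call at adjusted p under 0.05), 0 of 10 members were called for methylparaben against vehicle, where 1.32% of all genes were (0.683% of all genes called higher in methylparaben). At an unadjusted p under 0.05 the count was 1 of 10 (Pvalb), where 22.1% of all genes were below it. All 10 estimates lay above 0, from a log2 difference of 0.92 (Acta1) to 1.51 (Myh4), with a median of 1.20, against a median of 0.01 over all genes tested and 51.2% of genes above 0. For Acta1, methylparaben against vehicle gave a log2 difference of 0.92 ± 0.89 (SE, interval -0.86 to 2.70, limma adjusted p = 0.569). For Myh4 it gave 1.51 ± 0.94 (interval -0.37 to 3.38, limma adjusted p = 0.341), and for Pvalb 1.36 ± 0.66 (interval 0.04 to 2.69, limma adjusted p = 0.212). The intervals of Acta1 and Myh4 hold both a fall and a rise, and that of Pvalb starts just above 0. Without methylparaben replicate 5 the estimates were lower, from 0.60 (Acta1, limma adjusted p = 0.737) to 1.16 (Myh4, limma adjusted p = 0.481). The count at an unadjusted limma p under 0.05 was then 0 of 10, where 20.6% of all genes were below it.

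Mean levels on the scaled CPM scale were pulled up by that library. Acta1 averaged 42.7 ± 63.5 in vehicle (SD, n = 19) and 178 ± 403 in methylparaben (SD, n = 20), or 91.3 ± 113 without replicate 5. Myh4 averaged 38.3 ± 67.2 in vehicle and 208 ± 542 in methylparaben, or 90.1 ± 123 without it. Pvalb averaged 6.03 ± 10.3 in vehicle and 37.1 ± 98.5 in methylparaben, or 15.5 ± 18.9 without it. In each case the standard deviation exceeds the mean.

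Count tests on the recovered whole reads called some members for methylparaben against vehicle. With edgeR's quasi-likelihood test 5 of 10 passed, where 4.04% of all genes did: Pvalb (log2 2.57, adjusted p = 0.0326), Tnnt3 (2.47, 0.0443), Mylpf (2.23, 0.0459), Atp2a1 (2.40, 0.0465) and Myl1 (2.15, 0.0493). DESeq2 called 1, Pvalb (log2 2.67, adjusted p = 0.0481), where 4.89% of genes passed, and it replaced outlying reads of Myh4. Without methylparaben replicate 5, an alternative added after seeing the data, both tests called 0 of 10. The lowest edgeR adjusted p was then 0.215 (Pvalb, log2 1.36) and the lowest DESeq2 adjusted p 0.304 (Mylpf, log2 1.29). The calls of the count tests were therefore lost without that library. Without it limma called 0.367% of all genes, which does not stand for the count tests. Their own share of all genes without it is not given here. Other libraries were not left out of the count tests, so whether the calls rest on it alone was not tested.

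For propylparaben against vehicle, limma called 0 of 10 members (0.0276% of all genes passed), and 0 had an unadjusted p under 0.05 (18.4% of all genes did). The log2 differences ran from 0.67 (Myh1) to 0.93 (Myl1), with a median of 0.80 against -0.000507 over all genes tested. Acta1 averaged 77.6 ± 80.0 in propylparaben (SD, n = 20), with a log2 difference from vehicle of 0.78 ± 0.89 (SE, interval -1.004 to 2.56, limma adjusted p = 0.667). Both edgeR and DESeq2 called 0 of 10, where 0.214% and 1.93% of all genes passed. The 2 comparisons against vehicle share the 19 vehicle libraries, so their estimates are not independent.

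Between the 2 esters, which differ by a methyl or a propyl group on the ester, no difference in the muscle genes was shown either. For propylparaben against methylparaben, limma called 0 of 10 members and 0% of all genes, and 0 members had an unadjusted p under 0.05 (2.15% of all genes did). edgeR and DESeq2 called 0 members, where 0.145% and 0% of all genes passed. The log2 differences ran from -0.69 (Myh4) to -0.14 (Acta1), all with a limma adjusted p of 1.00. The intervals were -2.54 to 1.16 for Myh4 and -1.90 to 1.61 for Acta1. Without methylparaben replicate 5 the Acta1 estimate was 0.18 and the signs of Ckm (0.016) and Myl1 (0.065) turned as well, so the direction between the esters was not settled for these genes. The doses of the 2 esters are not in the labels.

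**Figure D3:**
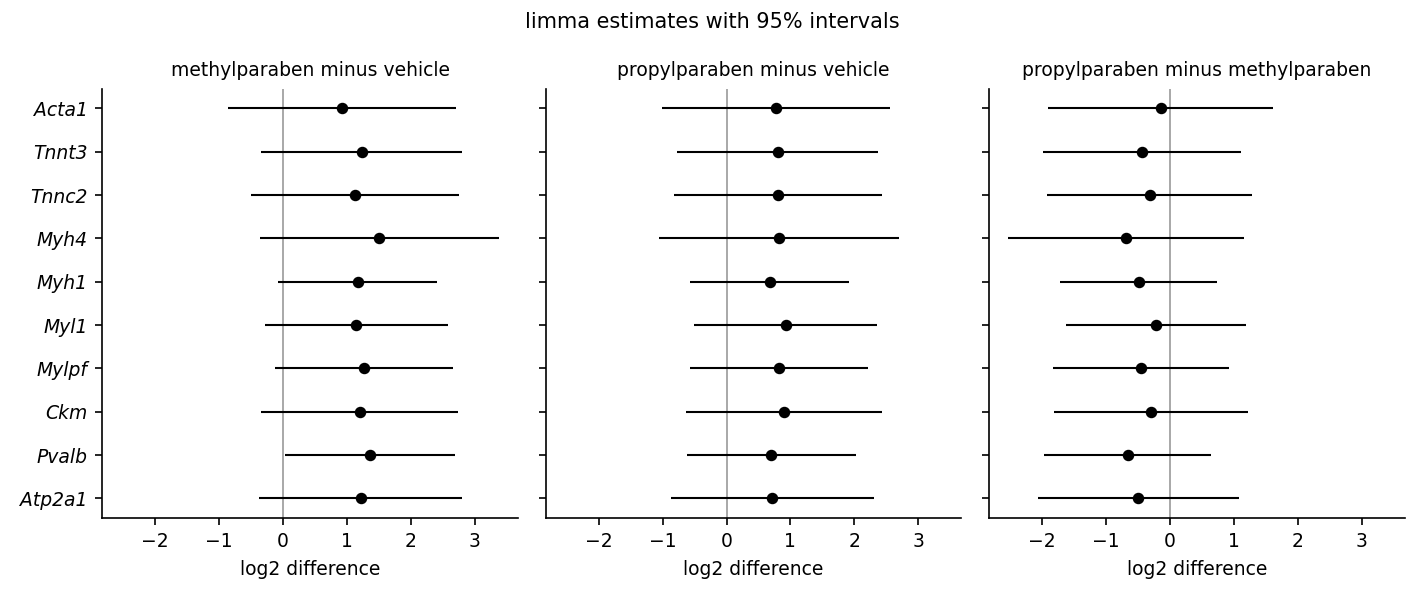
Log2 differences of the 10 genes in the 3 comparisons, first group minus second, with 95% intervals from limma. Estimates against vehicle lie above 0 and those between the esters at or below it, and every interval but that of Pvalb for methylparaben minus vehicle crosses 0.

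Fast fibres made up the muscle signal in the 32 libraries with at least 50 reads on the myosin heavy chain genes Myh4, Myh1, Myh2 and Myh7. Of 14431 such reads, 87.6% lay on Myh4, 9.66% on Myh1, 2.72% on Myh2 and 0.0693% (10 reads, in 3 libraries) on the slow gene Myh7. The Myh4 share had a median of 83.5% in 9 vehicle libraries (60.8% to 91.2%), 88.3% in 12 methylparaben libraries (42.2% to 95.7%) and 89.8% in 11 propylparaben libraries (55.97% to 92.9%). The ranges of the groups overlap, and no test was made on these shares. Single libraries differed beyond counting error. In methylparaben replicate 8, 95.7% of 187 reads were on Myh4 (interval 91.7 to 98.1) and 1.60% on Myh1 (interval 0.332 to 4.62). In methylparaben replicate 4, 42.2% of 64 reads were on Myh4 (interval 29.9 to 55.2) and 53.1% on Myh1 (interval 40.2 to 65.7). Propylparaben replicate 4, with 55.97% of 243 reads on Myh4 (interval 49.5 to 62.3), and vehicle replicate 19, with 60.8% of 51 (interval 46.1 to 74.2), also lay below the rest. In propylparaben replicate 4 the Myh1 share was 29.6% and the Myh2 share, 14.4%, was the highest of the 32.

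Heavy chain genes are close relatives. Of all 50-base runs of the longest coding transcript, 18.9% in Myh4 and 26.7% in Myh1 also occur in another heavy chain gene compared, for Myh1 mostly in Myh2. Reads that align to several places were 10.95% to 15.8% of the reads per library and are not in the gene counts. The shares of Myh1 and Myh2 are therefore less certain than the sum of the 2.

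**Figure D4:**
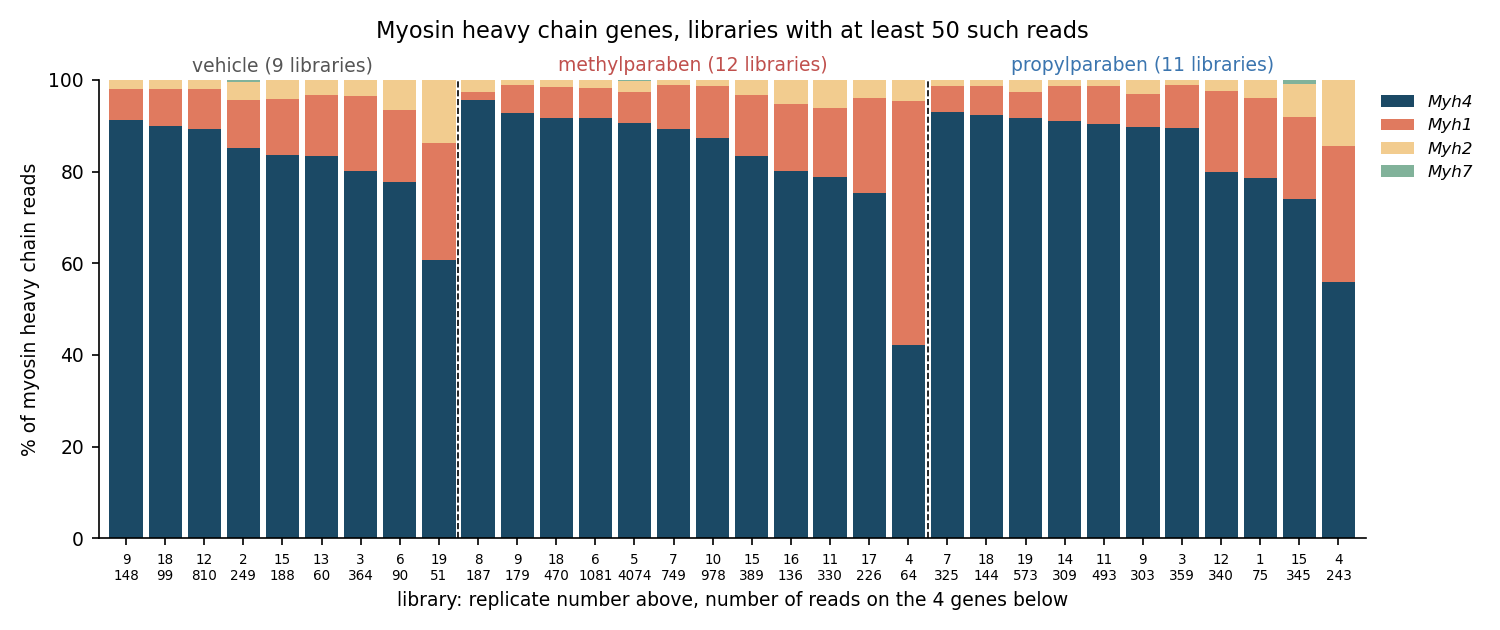
Share of the 4 myosin heavy chain genes among their summed reads in the 32 libraries with at least 50 such reads, with the replicate number and the number of reads under each bar. Myh4 takes most of nearly every bar, and methylparaben replicate 4 is the one library in which Myh1 exceeds it.

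Proportions among the 10 genes varied in other ways too. Tnnc2 took a median of 9.62% of the reads on the 10 genes, and 17.2% in methylparaben replicate 18 (interval 15.5 to 18.9), where the next library, propylparaben replicate 12, had 13.8%. Myl1 took a median of 6.89% and reached 12.8% in vehicle replicate 19 (interval 8.97 to 17.5). Pvalb ran from 2.07% (propylparaben replicate 14, interval 1.29 to 3.15) to 5.35% (propylparaben replicate 18, interval 3.64 to 7.55). In methylparaben replicate 5, the library with the most reads, Acta1 took 20.0% (interval 19.3 to 20.7), the lowest share of the 32, where the median was 24.6%.

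Intronic reads, which come mostly from RNA that is not yet spliced, were few for most members. Exons of genes on the other strand lie inside introns of Ckm (2109 bases, A930016O22Rik), Tnnc2 (1041, Ube2c) and Atp2a1 (877, Rabep2). The same holds for Myh1 (805, Myhas) and Tnnt3 (335, Prr33). As the strand setting and intron definition are not given, reads of those exons cannot be told apart from intronic reads of these members. They made up 13.5% of the reads of Tnnt3 (633 reads), 11.2% of those of Myl1 (434 reads) and 2.75% of those of Atp2a1 (139 reads). In the remaining 7 genes they were at most 2.90% (Myh1), and Acta1 had none. Over 13302 genes found in both tables with a mean of at least 1 the median was 20.3%. Tnnt3 introns ran from 0 to 37.9 scaled CPM in vehicle (median 2.30), from 0 to 756 in methylparaben (median 13.6) and from 0 to 54.2 in propylparaben (median 8.51). They followed the gene level library by library, with a Pearson correlation of 0.97 and a Spearman correlation of 0.95. For Tnnc2 (0.83), Myl1 (0.81), Atp2a1 (0.79), Myh4 (0.75) and Myh1 (0.72) the Pearson correlation was lower. Pvalb introns followed the gene level less (0.57), and those of Ckm (0.22) and Mylpf (0.072) followed it little. Ckm introns stood at 2 reads in methylparaben replicate 5, against 982 reads on its exons.

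Of intron values, 8 members had a mean of at least 1 scaled CPM and were tested, and limma called 0 of 8 in each comparison, as it did 0% of the 14281 genes tested. For methylparaben against vehicle, 2 members, Myl1 and Tnnc2, had an unadjusted p under 0.05 (13.3% of all genes did), 1 member, Myl1, in propylparaben against vehicle (12.1%), and 0 in propylparaben against methylparaben (3.47%). Myl1 introns ran from 0 to 33.1 scaled CPM in vehicle (median 3.17), from 0 to 301 in methylparaben (median 11.8) and from 0 to 32.1 in propylparaben (median 8.98). At least 10 scaled CPM was reached in 2 of 19, 13 of 20 and 9 of 20 libraries. The log2 difference was 1.57 ± 0.53 (SE, interval 0.52 to 2.62, limma adjusted p = 0.182) for methylparaben and 1.25 ± 0.53 (interval 0.20 to 2.29, limma adjusted p = 0.324) for propylparaben against vehicle. In methylparaben against vehicle edgeR called the introns of Tnnt3 (log2 2.85, adjusted p = 0.0372) and Myl1 (2.11, 0.0497), where 0.336% of all genes passed. DESeq2 called Myl1 (2.39, 0.0267), where 0.538% passed, and gave no adjusted p for 6 of the 8. Without methylparaben replicate 5 both tests called 0, with an adjusted p for Myl1 of 0.249 with edgeR and 0.224 with DESeq2. Their share of all genes without it is not given here. For propylparaben against vehicle edgeR and DESeq2 called 0 of 8 (0% and 0.122% of all genes passed), as they did for propylparaben against methylparaben (0.007% and 0%).

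Myl1 introns also had reads in some tumors with almost no other muscle RNA, a pattern noticed after the values were seen. The 6 libraries with the highest ratio of the Myl1 intron level to the gene level plus 1 all had Acta1 below 3 scaled CPM. Methylparaben replicate 13 had 28.7 scaled CPM on Myl1 introns (11 reads) with Acta1 at 0.497, and propylparaben replicate 10 had 30.6 (21 reads) with Acta1 at 1.09. Methylparaben replicate 14 had 16.1 (10 reads) with Acta1 at 2.88, propylparaben replicate 17 had 13.8 (9 reads), propylparaben replicate 8 had 8.37 (4 reads) and methylparaben replicate 12 had 4.13 (2 reads). The fat cell hormone gene Adipoq ran from 93.2 to 185 scaled CPM in these 6 libraries, ranks 3 to 16 of the 59. The part of fat tissue in the Myl1 intron reads was not tested.

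**Figure D5:**
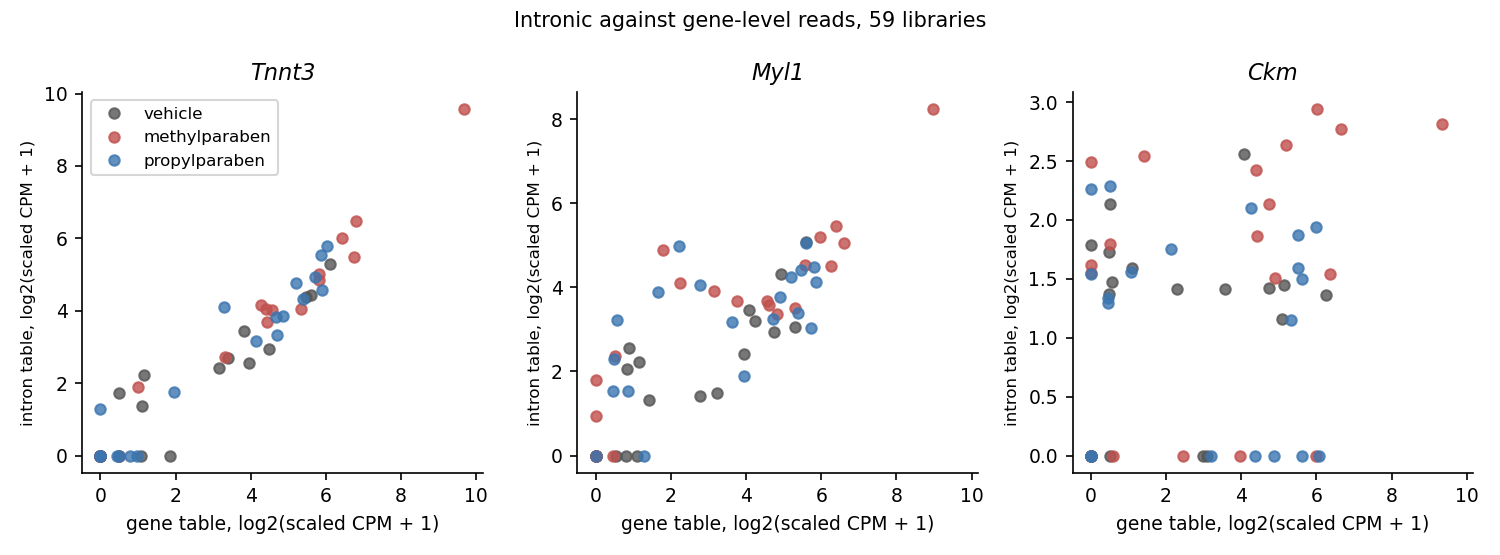
Intron level against gene level of Tnnt3, Myl1 and Ckm in the 59 libraries, both as log2(scaled CPM + 1), colored by group. Tnnt3 points lie along a line, several Myl1 points with a low gene level have raised introns, and Ckm introns stay low at every gene level.

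Levels of most other fast muscle genes varied with those of the 10 across libraries, and none of those listed passed the test. In methylparaben against vehicle, 0 of 21 tested genes of the sarcomere and Z-disc were called with limma (median log2 difference 0.83, 21 above 0, 3 with an unadjusted p under 0.05), where 1.32% of all genes were called, 51.2% lay above 0 and 22.1% had an unadjusted p under 0.05. Examples, with means in vehicle, in methylparaben and in methylparaben without replicate 5 in scaled CPM, were the giant titin gene Ttn (64.1, 202 and 107, log2 1.40 ± 0.83, limma adjusted p = 0.316), Neb, which encodes the thin filament ruler nebulin (18.7, 68.2 and 35.8, log2 1.08 ± 0.73, limma adjusted p = 0.390), and the tropomyosin gene Tpm2 (67.8, 139 and 99.9, log2 0.70 ± 0.27, limma adjusted p = 0.111). Tpm2 and the Z-disc gene Ldb3 had reads in every library and followed the muscle genes less closely (Pearson 0.64 and 0.35), while Myoz3 and Tmod4 were the lowest of the list, with means of 0.487 and 0.726. Of genes of excitation-contraction coupling 0 of 11 tested were called (median 0.64, 5 with an unadjusted p under 0.05), among them Trdn, a protein of the calcium release complex (means 4.68, 22.9 and 12.3, log2 1.28 ± 0.62, limma adjusted p = 0.212), and Casq1, the calcium store protein (means 2.74, 13.9 and 6.52, log2 0.85 ± 0.51, limma adjusted p = 0.318). Jph1 and Jph2, junction proteins with reads in every library, and Scn4a and Sgca, the lowest of the list, complete it. Of muscle energy genes 0 of 13 were called (median 0.49, 6 with an unadjusted p under 0.05), with muscle glycogen phosphorylase Pygm at means of 5.73, 32.7 and 14.6 (log2 1.21 ± 0.59, limma adjusted p = 0.211), Pfkm at 10.5, 18.1 and 13.9, Gpd1 at 17.7, 44.9 and 20.2 and Slc25a4, the adenine nucleotide carrier of many tissues, at 197, 209 and 192. Phkg1 and Fbp2 were the lowest of that list. The summed level of the sarcomere list was 49.6 to 1094 in vehicle, 98.2 to 6244 in methylparaben (at most 1486 without replicate 5) and 122 to 879 in propylparaben. Without that library, an alternative added after seeing the data, limma called 0 of 19, 0 of 8 and 0 of 12 tested genes of the 3 lists, with medians of 0.62, 0.43 and 0.40 and 1, 1 and 2 at an unadjusted p under 0.05, where 0.367% of all genes were called and 20.6% had such a p.

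For propylparaben against vehicle the same 3 lists had 0 of 21, 0 of 11 and 0 of 13 members called with limma, with median log2 differences of 0.48, 0.49 and 0.26 and 0, 1 and 0 members at an unadjusted p under 0.05, where 18.4% of all genes were. Between the esters the counts were again 0, with medians of -0.36, -0.22 and -0.23.

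Most slow fibre, heart and developing muscle genes had a mean under 1 scaled CPM. Of 12 slow fibre genes 3 had a mean of at least 1, and these were Tpm3 (mean 134), Atp2a2 (mean 108) and Casq2 (mean 4.28), which followed the muscle genes little (Pearson 0.17, 0.05 and 0.02). Csrp3 was next, with a mean of 0.968 and a Pearson correlation of 0.83 with them, while Myl2 and Myh7b had 7 and 2 reads in all 59 libraries. Of 10 heart genes, Myh6 and Nppb had no read and Ankrd1, Tnnt2, Tnni3 and Myl4 correlated with the muscle genes at 0.24, -0.10, -0.08 and -0.08. Of 14 myogenic and developmental genes, Mef2c (mean 60.1) and Myf6, the regulator kept in adult fibres (mean 1.10, Pearson 0.83), were tested, and 0 of 2 passed for methylparaben against vehicle (limma adjusted p = 0.0785 and 0.239). Vgll2 and Myog were next by mean, and Myf5 and Chrng were lowest, with 2 and 3 reads. The smooth muscle list had 11 of 11 estimates above 0 for methylparaben against vehicle (median 0.54, 0 called with limma, 6 with an unadjusted p under 0.05). Of all genes 51.2% lay above 0 and 22.1% had such a p. Levels of most of the smooth muscle list, however, did not follow the 10 genes. Mylk, Acta2, Myh11 and Cnn1, the 4 highest by mean, had Pearson correlations of -0.07 to -0.03 and Actg2 of -0.12, while Des, which encodes desmin of all muscle types, followed them at 0.94.

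The genes most like the members were other muscle genes. Over 14477 other genes with a mean of at least 1, the Pearson correlation of the log2 level with the mean log2 level of the 10 members across 59 libraries was highest for Tcap (0.99), Neb (0.98), Tnni2 (0.98), Trdn (0.98), Ttn (0.98), Xirp2 (0.98), Pygm (0.97), Smpx (0.97), Klhl41 (0.97), Klhl31 (0.96), Actn3 (0.96), Mybpc1 (0.96), Myom2 (0.95), Casq1 (0.95) and Myot (0.95). Of these 15, Klhl31 alone was on no list fixed for this work. A correlation above 0.9 was found for 30 genes. The lowest were the chemokine receptor gene Cxcr4 (-0.52), Phlda2 (-0.49) and Bex3 (-0.48). In the intron table Xirp2 (0.95), Trdn (0.95), Ttn (0.94), Neb (0.92) and Nctc1 (0.86) were highest.

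Levels of genes of neighboring tissues were set beside Acta1 across the 59 libraries, each with a two-sided permutation test of 100000 resamples and adjustment over 6 correlations, of which 5 are given. Ucp1, the uncoupling protein of brown fat, had r = 0.31 (permutation p = 0.00393, adjusted p = 0.0118) but rho = 0.06 (permutation p = 0.637, adjusted p = 0.658). Without the 2 libraries farthest from the Acta1 median, methylparaben replicates 5 and 1, r was 0.12. They were left out together, so the part of each was not separated. Within methylparaben r was 0.46, and again 0.46 without replicates 1 and 20. Ucp1 was at 746 in methylparaben replicate 5, and 10 of the 59 libraries had a read. Of 7 nerve genes tested 1 rose in methylparaben against vehicle, Mbp of myelin (log2 0.42, limma adjusted p = 0.0301), where 0.683% of all genes were called higher. The level of Mbp had a Pearson correlation of 0.38 with the muscle genes, while that of Sox10 had 0.08 and Pmp2 had no read.

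Adipoq had r = 0.24 (permutation p = 0.0658, adjusted p = 0.132) and rho = 0.23 (permutation p = 0.0859, adjusted p = 0.172), and r was 0.17 without the 2 farthest libraries. Within groups r was 0.06, 0.53 and -0.14 in vehicle, methylparaben and propylparaben (permutation p = 0.812, 0.0168 and 0.559). The remaining pairs were Krt10 of the skin barrier (r = 0.14, permutation p = 0.307, adjusted p = 0.369), Acta2 of smooth muscle and myoepithelium (r = -0.05, permutation p = 0.698, adjusted p = 0.698) and Epcam of the tumor epithelium (r = 0.22, permutation p = 0.0913, adjusted p = 0.137), whose rho were 0.06, -0.10 and 0.25. Since Acta1 divides the libraries into 33 at 10 scaled CPM or more (11.98 to 1827) and 26 below (0 to 6.35), the relation with Adipoq was also taken within each part, a split made after the values were seen. Among the 33, r was 0.64 (unadjusted permutation p = 0.0001, rho = 0.56), and 0.55 without the 2 farthest libraries. Among the 26, r was 0.18 (unadjusted permutation p = 0.386). In the same 33, r was 0.45 for Ucp1 (-0.03 without the 2 farthest libraries), 0.20 for Krt10, 0.03 for Acta2 and 0.03 for Epcam. The split was made on Acta1 itself and Adipoq was picked from several genes, so no conclusion is drawn from these p.

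Estimates of white fat genes had the same sign as those of the muscle genes. For methylparaben against vehicle 12 of 12 had an estimate above 0 (median log2 difference 1.28), and limma called 0 (lowest adjusted p = 0.0874, 11 with an unadjusted p under 0.05, as had 22.1% of all genes). Without methylparaben replicate 5 the median was 1.04, with 0 called and 9 of 12 at such a p (20.6% of all genes). Their summed level was 27.9 to 771 in vehicle, 49.3 to 15065 in methylparaben (at most 1522 without replicate 5) and 50.2 to 3728 in propylparaben, and all 12 had reads. Of brown fat genes 8 of 8 tested lay above 0 (median 0.72, 0 called with limma, lowest adjusted p = 0.0536, 6 with an unadjusted p under 0.05), with a summed level of 16.5 to 73.2, 26.7 to 2521 (at most 179 without replicate 5) and 18.9 to 93.1. Without replicate 5, 6 of 6 tested brown fat genes lay above 0 (median 0.48, 0 called, 2 with an unadjusted p under 0.05). Of skin genes 7 of 8 lay above 0 (median 0.45, 0 called, 2 with an unadjusted p under 0.05), with a summed level of 10.3 to 140.3, 9.498 to 1001 and 12.5 to 35.3. In propylparaben against vehicle 1 of 8 skin genes lay above 0 (median -0.28, 0 called), where 10 of 10 muscle genes and 12 of 12 white fat genes (median 0.92, 0 called) did, and 6 of 8 brown fat genes (median 0.14, 0 called). The skin list was highest in methylparaben replicate 10, the library with rank 3 by the share of muscle reads. In methylparaben against vehicle 10 of 10 fibroblast genes lay above 0 (median 0.51, 0 called, 8 with an unadjusted p under 0.05). Of salivary gland genes 3 of 4 tested did (median 0.42, 0 called, 1 with such a p). Of all genes 22.1% had such a p there. The part of any of these tissues in the muscle results was not tested.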

How the data were processed

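RNA sequencing of 59 mammary tumors gave a gene table and an intron table, both deposited as a signal that the authors had normalized. The submitters' processing notes name bcl2fastq 2.20.0.422, STAR 2.6.1d and HTSeq 0.10.0, and the build GRCm38. The sources used here do not give the annotation, library kit, strand setting, intron definition or normalization tool. Every value was a whole multiple of 1 factor per library (100% whole within 1e-06 reads), so reads were recovered. Scaled CPM is CPM, HTSeq summary lines (27.7% to 47.9% of reads) included, divided by the library factor, and each table was scaled apart. No pair of libraries of a group agreed within sampling noise (lowest chi-square per degree of freedom 2.07).

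The main test was limma 3.58.1 (trend) in R 4.3.3 with data.table (version 1.17.8), on log2(value + 1), with all 59 libraries in 1 fit, features with a mean of at least 1, Benjamini-Hochberg adjustment over all of them within a comparison, and a call at adjusted p under 0.05. On simulated data the fit was tested before use. edgeR 4.0.16 and DESeq2 1.42.0 on recovered reads, other pseudocounts, filters, scalings and weights, and each library left out were alternatives. Permutation tests and intervals used Python 3.11.15 with scipy 1.17.1 and numpy 2.4.6, tables used pandas 2.3.3 and figures matplotlib 3.10.9. GENCODE M21 (GRCm38) gave positions and exon lengths for 55154 identifiers of the gene table.

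Named were the 10 members, the 15 genes most and 3 least like them (5 in introns), 6 tissue genes, and of each list those called, or else up to 4 members with the highest and up to 2 with the lowest mean. Of the nerve and fat lists only single genes are described, and 1 of the 6 tissue genes is not reported here. The members and lists were chosen with earlier results of these data known.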

Additional observations from a re-analysis of the deposited data

How the results depend on the processing

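No paired analysis was possible because the replicate numbers only follow the order of the records. For methylparaben against vehicle, 0 members were called with limma under each pseudocount, filter, scaling, weighting and rank setting, but edgeR called 5 and DESeq2 1, and in the intron table edgeR called 2 and DESeq2 1. Without methylparaben replicate 5 edgeR and DESeq2 called 0 in both tables. In the other 2 comparisons all settings gave 0. With limma, leaving out each of the 59 libraries in turn left the count of called members at 0 in each comparison and table, and members of 1 comparison then ranged from 0.60 to 1.77 (methylparaben against vehicle), from 0.53 to 1.12 (propylparaben against vehicle) and from -0.94 to 0.18 (between the esters) on the log2 scale. Between the esters the sign turned in 14 of 590 such values: for Acta1, which ranged from -0.39 to 0.18, and, without methylparaben replicate 5, for Ckm (-0.48 to 0.016) and Myl1 (-0.41 to 0.065). The correlation of Acta1 with Adipoq passed at a pseudocount of 10 (r = 0.29, permutation adjusted p = 0.0495), and the cause was not tested. Under the other pseudocount and scaling settings run, no other correlation changed its Pearson call. That with Ucp1, however, fell to r = 0.12 without 2 libraries, left out together, and did not pass by rank (Spearman adjusted p = 0.658). Median shares did not move beyond 1 SD, but these checks could hardly fail. In vehicle the SD of the share of muscle reads (0.0397%) far exceeds its median (0.00154%). For the myosin shares the lower minimum of 20 reads kept the same numbers of libraries (9, 12 and 11), with the same medians. All genes called for methylparaben against vehicle numbered 191 with limma, 585 with edgeR, 640 with DESeq2, 53 with limma without methylparaben replicate 5, 2 with the 2 groups alone and 0 on ranks. A mean of 1 scaled CPM is a few reads, so Myh1 in low libraries and the introns of most members rest on single reads.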

Other observations

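Genes of developing or regenerating fibres were scarce, and those given here all had their highest level in 1 library, propylparaben replicate 14. Other genes of the myogenic list had theirs elsewhere. Myod1, Pax3, Myf6, Vgll2 and Mef2c were highest in methylparaben replicate 5 and Myf5 in methylparaben replicate 18. Pax7 was highest in propylparaben replicate 9 and Cdh15 in vehicle replicate 11. Propylparaben replicate 14, which held 1014 reads on the 10 muscle genes, had 7 of the 15 reads on Myh3, the embryonic myosin heavy chain, 4 of the 25 on Myh8, the perinatal chain, and 6 of the 28 on Myog, a regulator of muscle differentiation. It had 3 of the 10 reads on Mymk and 3 of the 5 on Mymx, which encode the proteins that fuse myoblasts, and 2 of the 3 on Chrng, the fetal subunit of the acetylcholine receptor. Chrna1, another subunit of that receptor, had 17 of its 94 reads there, and Sln, a regulator of the calcium pump, 24 of 141. In methylparaben replicate 5, with 13765 reads on the 10 muscle genes, Myh3, Myh8, Chrng, Mymk and Mymx had 0 reads, Myog 3, Chrna1 4 and Sln 5. These genes were looked up after their values were seen, the counts are small, and no test was made.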
